A study of Sus scrofa with 30 samples.

Results

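The cholesterol synthesis enzymes of the sow mammary gland are described here across the lactation cycle. The 8 genes were chosen by their place in the pathway (HMGCS1, MVD, IDI1, FDPS, FDFT1, SQLE, LSS and DHCR7), with earlier results of these data known. Every annotated transcript of a gene was taken with its sum. Of the 8 genes, 7 were matched by symbol in the table, with 19 transcripts among 61773, or 7 genes among 26019 genes and assembled loci. IDI1 was not matched and is not analysed here. Mammary parenchyma was sampled from 30 multiparous Danish Landrace × Yorkshire crossbred sows kept on 1 farm, all half-siblings, with different sows at each stage. The stages were day 70 of gestation (mid-gestation, MG), day 110 of gestation (late gestation, LG), day 2 postpartum (early lactation, EL), day 10 postpartum (peak lactation, PL) and day 2 after weaning (early involution, W2), with 6 sows each. No sow carried a treatment or an altered gene. The level of a gene is given in units, which are the deposited values summed over its transcripts and which add up to between 997480 and 1002643 in every sample.

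Animal cells build cholesterol from acetyl-CoA. HMGCS1 makes HMG-CoA in the cytosol, MVD and IDI1 supply the isoprene building blocks, FDPS joins them into farnesyl diphosphate, and FDFT1 commits this intermediate to sterols as squalene. SQLE adds oxygen to squalene in a slow and tightly regulated step, LSS closes the sterol rings to lanosterol, and DHCR7 carries out a last reduction to cholesterol. Transcription of these genes is driven by SREBP factors, which are held in the endoplasmic reticulum by INSIG proteins when sterol is plentiful. In the lactating gland, cholesterol serves the membranes of secretory cells and leaves the cell in the envelope of milk fat globules.

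In every stage 3 of the 6 samples were near copies of one another and of the mean of the others, differing by a median of at most 1.85% over abundant transcripts, where the other samples differed by 19.6 to 59.8%. They were not counted, so n = 3 sows in each stage. Because the sum per sample is fixed, a few abundant transcripts lower all others: the 20 most abundant took 42.2 to 59.9% of the sum at PL and 25.6 to 41.7% in the other 4 stages. PL sow 2 had the highest share, the highest summed level of 6 milk protein genes (285000 units, against 138800 and 91237 in the other PL sows) and the lowest sum of 8 luminal epithelial markers (873 units, against 1348 to 2235 in all other samples). The milk protein sum was 11906 to 29461 units at MG, 33885 to 59296 at LG, 63857 to 120790 at EL and 5781 to 8140 at W2. Samples titled EL carry a mid-gestation tag in another label field, and those titled MG an early lactation tag. Titles were followed, and comparisons among LG, PL and W2 do not depend on this choice.

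HMGCS1 stage means spanned 7.37-fold from the lowest to the highest with all 15 sows, against 3.75-fold for SQLE. Without PL sow 2 both genes spanned 3.49-fold. It lies on chromosome 16 (chr16:27936225-27957261, build Sscrofa11.1). HMGCS1 held 27.7, 25.4 and 27.2 units in MG sows 1, 3 and 6, and 26.0, 29.0 and 24.1 units in LG sows 1, 3 and 4. At EL it held 30.9, 48.4 and 44.7 units in sows 3, 4 and 6, and at PL 399, 131 and 52.6 units in sows 2, 3 and 6. The lowest PL sow stood above the highest of the other 12 sows, but the PL sows themselves were spread widely, with a mean of 194 ± 182 units (SD, n = 3). After weaning the level was back at 26.4, 30.1 and 40.5 units in W2 sows 2, 3 and 6, inside the range of gestation and EL. On the log2(value + 0.5) scale HMGCS1 was higher at PL than at MG by 2.37 (SE 0.51, adjusted p = 0.00661, limma) and higher than at LG by 2.39 (SE 0.51, adjusted p = 0.00994). From PL to W2 it fell by 2.12 (SE 0.51, adjusted p = 0.00848). Against EL the difference was 1.78 with a 95% interval of 0.66 to 2.89 and did not pass the threshold (adjusted p = 0.0745). Without PL sow 2 the PL values were 1.62 above MG (adjusted p = 0.0063), 1.64 above LG and 1.02 above EL, and the W2 value was 1.37 below PL on the log2 scale (adjusted p = 0.011). Each of these HMGCS1 calls remained with any 1 of the 15 sows left out.

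**Figure D1:**
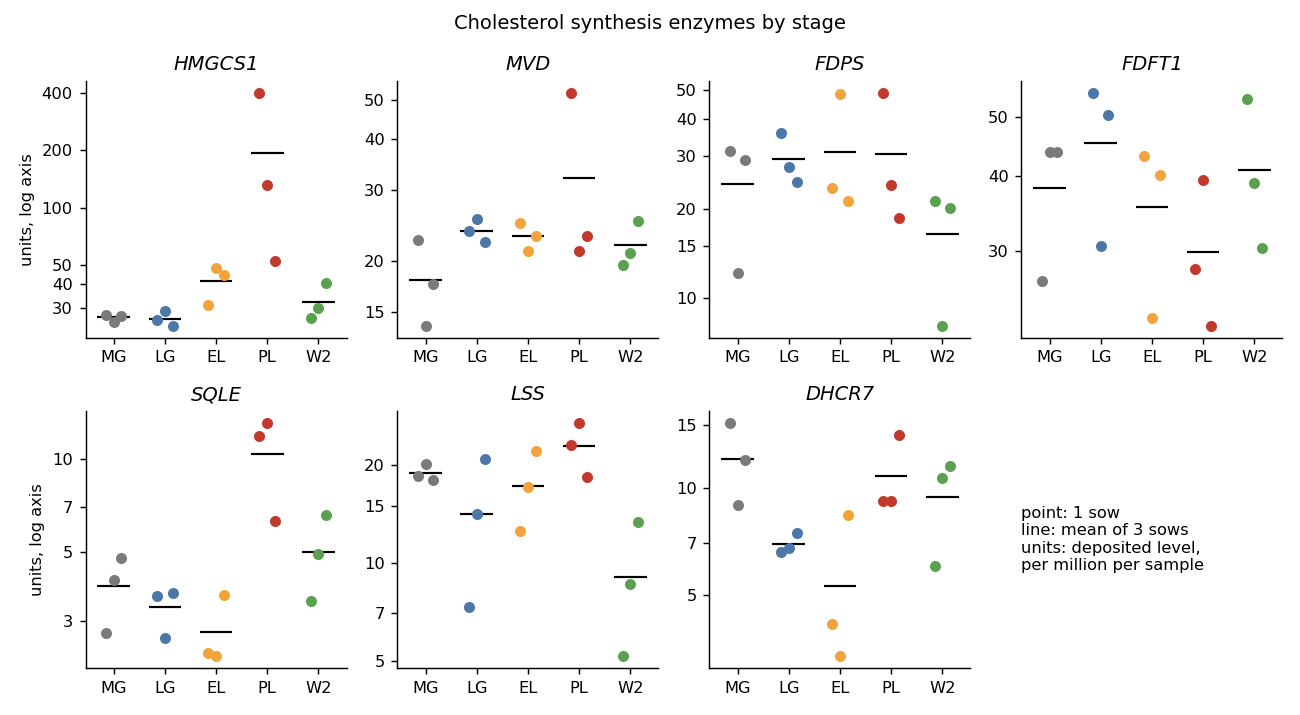
Level of each of the 7 matched enzymes in units on a log axis, by stage, with 1 point per sow and a line at the mean of 3 sows. HMGCS1 at PL spans 52.6 to 399 units and stands above all other stages, SQLE is highest in PL sows 2 and 3, LSS is lowest at W2, and FDFT1 overlaps among all stages.

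SQLE, the squalene epoxidase gene on chromosome 4 (chr4:14669789-14700152), was the scarcest member and shared the peak. It held 2.75, 4.07 and 4.80 units at MG, 3.61, 2.64 and 3.68 units at LG, and 2.36, 2.30 and 3.64 units at EL, sows in the same order as above. At PL it held 11.8, 13.0 and 6.28 units, and at W2 3.47, 4.93 and 6.59 units. All PL sows stood above all sows of MG, LG and EL, while PL sow 6 fell just under W2 sow 6. SQLE rose at PL against EL by 1.70 (SE 0.33, adjusted p = 0.0126), against LG by 1.46 (SE 0.33, adjusted p = 0.0117) and against MG by 1.28 (SE 0.33, adjusted p = 0.0144). It was the only member called between EL and PL. The lower level at W2 than at PL (-0.96, SE 0.33, adjusted p = 0.0391) was lost in 6 of the 15 fits with 1 sow left out, PL sow 2 among them (-0.84, adjusted p = 0.108). The call against MG was lost without MG sow 1 (adjusted p = 0.0513), and the call against EL without EL sow 3 (adjusted p = 0.0593).

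LSS moved after weaning. Its gene, for lanosterol synthase, has no chromosome assigned in the annotation. It held 18.6, 20.2 and 18.0 units at MG, 7.29, 14.2 and 20.9 units at LG, and 12.6, 17.2 and 22.1 units at EL. It then held 23.1, 27.0 and 18.5 units at PL and 5.16, 8.61 and 13.4 units at W2. Every W2 sow was below every PL sow and below every MG sow. LSS fell by 1.37 from PL to W2 (SE 0.38, adjusted p = 0.0165). Without W2 sow 2 the difference was -1.04 and no longer passed the threshold (adjusted p = 0.0656). The level at PL differed from EL by 0.41 with a 95% interval of -0.41 to 1.24, so that a rise between these stages was not detectable with 3 sows.

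DHCR7, which makes cholesterol from its immediate precursor, had its lowest stage mean at EL (5.32 units), but no comparison of it was called. The gene lies at chr2:2377352-2391846. Its level was 15.2, 8.94 and 12.0 units at MG, 6.63, 6.77 and 7.49 units at LG, and 4.16, 3.37 and 8.42 units at EL. It was 9.17, 9.20 and 14.1 units at PL and 6.06, 10.7 and 11.5 units at W2. The PL sows were all above the EL sows, by 1.03 on the log2 scale (95% interval 0.30 to 1.77), which did not pass correction over all genes (adjusted p = 0.111). MG against EL showed the same size of gap, -1.18 in EL, with adjusted p = 0.228. EL sow 6 lay above all LG sows, and EL vs LG was -0.45 (95% interval -1.19 to 0.28, adjusted p = 0.801).

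MVD, FDPS and FDFT1, whose enzymes act between mevalonate and squalene, passed no comparison among the 10 stage pairs with all 15 sows. MVD (chr6:1008100-1014303) held 13.8 to 25.4 units in all sows but PL sow 2, which held 52.1 units, against 21.2 and 23.1 units in the other PL sows. Its PL level was 0.72 above MG on the log2 scale (95% interval 0.09 to 1.35, adjusted p = 0.0877) and 0.32 above MG without PL sow 2. Without PL sow 3, in contrast, MVD was called in PL vs MG (0.96, adjusted p = 0.0355). FDPS (chr4:94500140-94514820) held 12.2 to 31.1 units at MG, 24.5 to 35.7 at LG, 21.2 to 48.3 at EL, 18.6 to 48.9 at PL and 8.08 to 21.1 at W2. The W2 sows were below all LG sows and just below all EL sows, and the lower level at W2 than at PL was -0.87 with a 95% interval of -1.92 to 0.19. FDFT1 (chr14:14976259-15010701), the squalene synthase gene, went the other way in sign, with 28.0, 39.3 and 22.5 units at PL and 53.6, 38.9 and 30.3 units at W2. Its difference between W2 and PL was 0.44 with a 95% interval of -0.28 to 1.16. The sign turned to -0.29 when samples were rescaled by their median ratio over abundant genes.

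Over the 5 stages, the moderated F test called HMGCS1 (adjusted p = 0.0226) and SQLE (adjusted p = 0.018). LSS and DHCR7 had adjusted p = 0.102 each, MVD 0.41, FDPS 0.497 and FDFT1 0.635. By comparison, no member was called in LG vs MG (background of all genes 0.0115% called, 0 members at an unadjusted p below 0.05), in EL vs LG (background 0.0154%, again 0 members) or in W2 vs MG (background 0.0115%, 1 member, LSS, at an unadjusted p below 0.05). In PL vs MG 2 of 7 members were higher where 2.23% of all genes were, in PL vs LG 2 of 7 where 1.62% were, and in PL vs EL 1 of 7 where 0.776% were. In W2 vs PL 3 of 7 were lower where 2.48% of all genes were. With EL and PL averaged against the other stages, HMGCS1 was the 1 member called (1.41, SE 0.33, adjusted p = 0.00761), where 2.34% of genes were higher. The median member was 0.32 above MG at PL, while the median of all genes was -0.57, and from PL to W2 the median member was -0.87 against 0.68 for all genes. In the limma fits the spread is shared over all stages. When only the 2 stages compared entered the fit, none of the 7 members was called in PL vs MG, PL vs EL or W2 vs PL, with 2, 2 and 3 members at an unadjusted p below 0.05. Those fits called 6.75, 0.165 and 11.4% of all genes in these 3 comparisons.

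**Figure D2:**
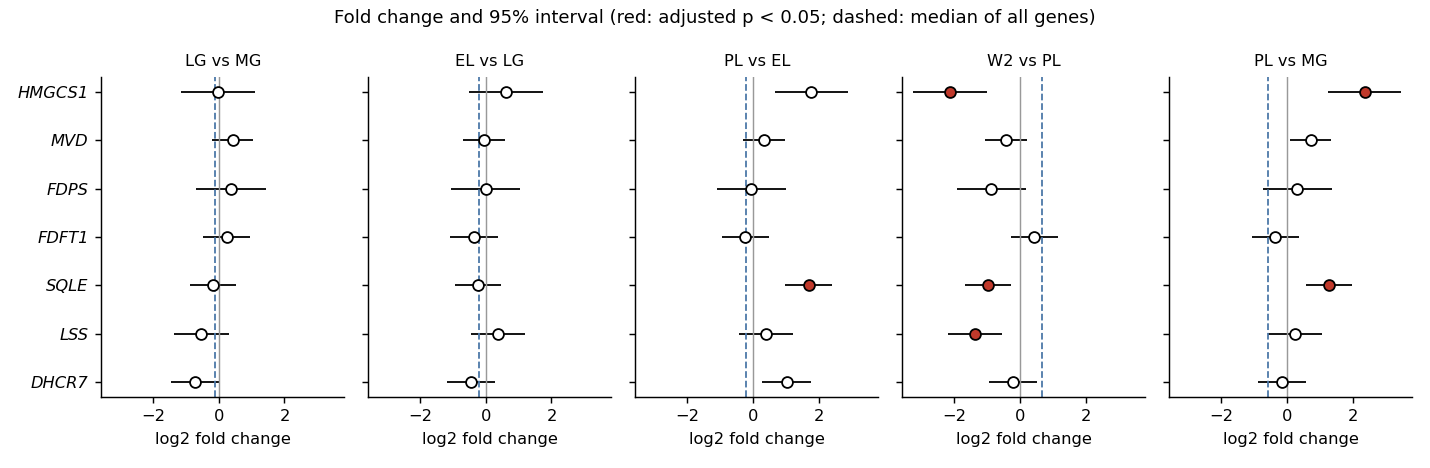
Log2 fold change of the 7 enzymes (points) with 95% intervals (lines) in 5 comparisons, filled red where the adjusted p was below 0.05, with the median of all genes as a dashed line. In W2 vs PL the points for HMGCS1, SQLE and LSS lie left of 0 while the median of all genes lies at 0.68.

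Because the sum per sample is fixed, the comparisons were repeated after rescaling the samples. With median ratio scaling, the share of called genes that were lower in W2 vs PL went from 7.54 to 43.3%, and the median of all genes went from 0.68 to 0.09. The W2 vs PL differences of HMGCS1, SQLE and LSS were then -2.86, -1.66 and -2.09, with all 3 called where 5.66% of all genes were lower. In sign, all 7 members were below 0. In PL vs MG, MVD joined HMGCS1 and SQLE (1.37, adjusted p = 0.04), and in PL vs EL, DHCR7 joined SQLE (1.36, adjusted p = 0.033). Of all genes 5.04% were then higher in PL vs MG and 2.54% in PL vs EL. With that scaling 54.2% of the genes called in PL vs MG were lower, against 91.2% as deposited. Ratios within a sample do not depend on the scaling. HMGCS1 was 2.34 to 14.3 times as abundant as FDFT1 in the PL sows and 0.473 to 2.08 times in the other 12. The ratio of SQLE to FDFT1 was 0.279 to 0.423 in the PL sows and 0.0547 to 0.217 in the other 12. FDFT1 had its lowest stage mean at PL (29.9 units), and HMGCS1 and SQLE were called higher there than at MG and LG. A gap in these ratios is thus partly built in. How many other gene pairs set PL apart in this way was not examined. HMGCS1 alone made up 69.8, 49.5 and 33.8% of the summed member level in PL sows 2, 3 and 6, and 15.7 to 29.5% in the other sows. These ratios were chosen after the levels had been seen and carry no test.

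The order of the PL sows was shared by some readouts and not by most members. HMGCS1 was highest in sow 2, lower in sow 3 and lowest in sow 6, as were FDPS and the milk protein sum. SQLE, LSS and FDFT1 were highest in PL sow 3 and DHCR7 in PL sow 6. MVD was highest in PL sow 2 but lowest in PL sow 3. The summed level of all members was 572, 265 and 156 units in PL sows 2, 3 and 6, against 122 to 164 units in the 12 sows of other stages. HMGCS1 made up 69.8% of this sum in PL sow 2, so the sum largely repeats HMGCS1 there. Markers of other cell types also differed among and beyond the PL sows. The sum of 5 leukocyte markers was 16.6, 252 and 311 units at PL and 12.2 to 54.5 units elsewhere. CD14 made up 9.23, 234 and 298 units of it at PL, while PTPRC held 3.39 to 5.75 units and CD3E 2.16 to 6.40 units. The sum thus followed CD14 rather than the list. Of the 5 markers 1 was called higher and 3 lower in PL vs MG, where 2.23% of all genes were higher and 23.0% lower. In W2 vs PL 3 were higher and 1 lower, where 30.4 and 2.48% of all genes were. The sum of 6 adipocyte markers was 259 to 430 units at PL and 447 to 735 elsewhere, although 2 of the 6, LEP and CIDEA, were highest at PL. Fibroblast and matrix markers summed to 472 to 1087 units at PL and 853 to 2632 elsewhere, endothelial markers to 72.9 to 107 against 95.4 to 172, and basal and myoepithelial markers to 879 to 2161 against 953 to 1803. Their part in the member levels was not tested. In bulk tissue, fewer cells of a type and less RNA per cell cannot be told apart.

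Transcript by transcript, the HMGCS1 change was carried by its main forms together. The transcript NM_001252215.1 made up 68.9 to 80.2% of the HMGCS1 sum in every sow, and it was called on its own in PL vs MG (2.36, SE 0.51, adjusted p = 0.0207 over all transcripts), in PL vs LG (2.41, adjusted p = 0.028) and in W2 vs PL (-2.12, adjusted p = 0.0262). The second form, XM_005657612.3, at 19.1 to 31.1% of the sum, was called in PL vs MG (2.14, adjusted p = 0.0369) and W2 vs PL (-1.89, adjusted p = 0.0468). The third, XM_021076557.1, was listed at 0 in 12 sows and reached 31.9 units in PL sow 2 only. SQLE has 1 transcript in the table, NM_001101026.1, of 2 that are annotated, and this transcript was not called once all transcripts were tested together (W2 vs PL, adjusted p = 0.131).

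The sums of LSS, FDFT1, FDPS and DHCR7 hid large differences in isoform share. For LSS, the coding form XM_021082500.1 made up at least 89.3% of the sum in 14 sows. In PL sow 2 it made up 15.9%, and the form XR_002341359.1, which RefSeq lists as non-coding, made up 84.1%. The coding form thus stood at 3.68 units in PL sow 2, below the 4.89, 8.33 and 12.3 units of the W2 sows, and at 26.5 and 18.2 units in PL sows 3 and 6. The fall of LSS to W2 was -0.60 for the coding form (adjusted p = 0.593), so the call above holds for the sum of both forms. The main FDFT1 form, NM_001167648.1, ranged from 11.1 to 86.8% of its sum with no order by stage, and the main FDPS form, NM_001185131.1, from 34.0 to 99.7%. For DHCR7, XM_021082642.1 ranged from 0.225% in PL sow 2 to 100%. How far the assembler could separate such forms is not known from the table, since it holds no read counts. For MVD, XM_021093666.1 made up 69.6 to 99.4%. The rest, 0.6 to 30.4%, was XR_002344443.1, which RefSeq also lists as non-coding. In MG sow 3 the coding form of MVD held 9.64 of 13.8 units.

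**Figure D3:**
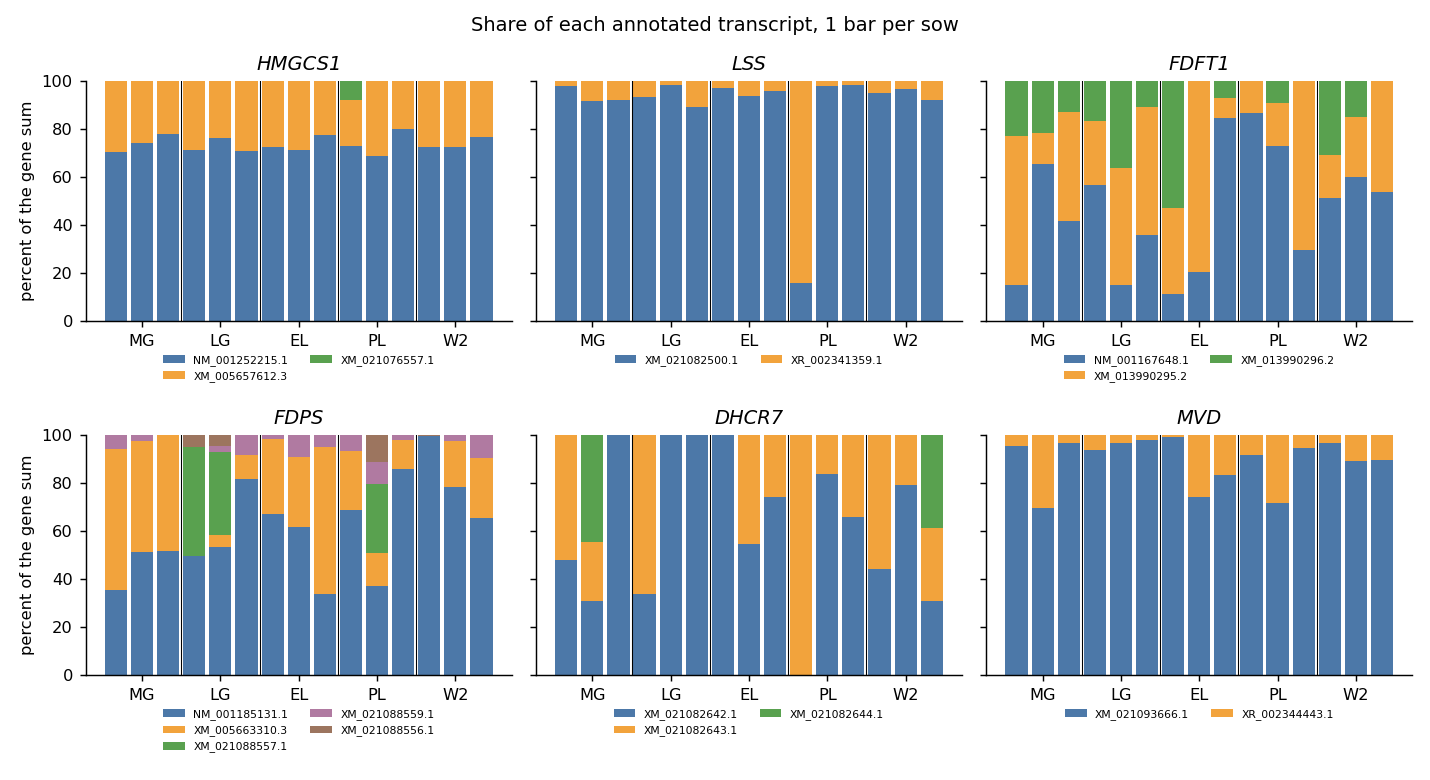
Percent of each gene's summed level held by each annotated transcript, 1 bar per sow in the order of the stages. The HMGCS1 shares are alike in all sows, LSS in PL sow 2 is the exception with 84.1% in the non-coding form, and the shares of FDFT1, FDPS and DHCR7 vary between sows of 1 stage.

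The members did not rise and fall as a block. Over the 15 sows the Pearson correlation of log2 levels between members had a median of 0.14 over 21 pairs, of which 12 were above 0, and a median of 0.013 without PL sow 2. These points share their stage and a fixed total. Over all sows HMGCS1 and SQLE ran most closely together, at r = 0.77, and 0.69 without PL sow 2. With stage means removed their r was 0.54, below that of HMGCS1 and MVD. HMGCS1 and MVD had r = 0.73, and 0.74 with stage means removed, but 0.17 without PL sow 2. FDFT1 had a negative r with all other members, from -0.42 with LSS to -0.12 with SQLE. The value with SQLE was 0.013 without PL sow 2 and 0.39 with stage means removed.

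Beyond the members, some other enzymes of the sterol branch were called higher at PL and none was called lower. In sign, 8 of the 10 examined were above 0 in PL vs MG, and 5 of the 10 without PL sow 2. Of 10 examined, 4 were higher in PL vs MG: ACAT2, which makes acetoacetyl-CoA, CYP51 and MSMO1, which remove methyl groups from lanosterol and its products, and SC5D, a desaturase near the end of the pathway. The same 4 were higher in PL vs LG. Of all genes 2.23% were higher in PL vs MG and 1.62% in PL vs LG. None of the 10 was called lower in either comparison, also at an unadjusted p below 0.05. CYP51 held 23.1, 19.9 and 18.0 units at MG and 80.5, 54.2 and 32.9 units at PL, a difference of 1.35 (SE 0.31, adjusted p = 0.00882). SC5D held 5.40, 7.21 and 6.60 units at MG and 34.6, 16.9 and 15.9 units at PL, a difference of 1.65 (SE 0.41, adjusted p = 0.0134). MSMO1 held 81.9, 50.3 and 31.4 units at PL against 23.9, 24.7 and 24.8 at MG (1.04, SE 0.27, adjusted p = 0.0166). These 3 genes had the same order of PL sows as HMGCS1, with sow 2 highest and sow 6 lowest.

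After weaning CYP51, SC5D and MSMO1 fell by 1.25, 1.31 and 0.89 on the log2 scale (adjusted p = 0.00941, 0.0294 and 0.0254). Without PL sow 2 only CYP51 of the 3 was called lower at W2 (-0.95, adjusted p = 0.032), and ACAT2, CYP51, SC5D and MSMO1 remained higher in PL vs MG. Between EL and PL, ACAT2 rose by 0.94 (SE 0.18, adjusted p = 0.0126) and TM7SF2, a sterol reductase, by 2.10 (SE 0.46, adjusted p = 0.0237). TM7SF2 held 7.84, 11.0 and 16.3 units at EL, its lowest stage as for DHCR7 and SQLE, and 41.0, 70.6 and 43.1 units at PL. The median of the 10 was 0.54 in PL vs MG and -0.42 in W2 vs PL. With median ratio scaling 5 of the 10 were higher in PL vs MG and 5 lower in W2 vs PL, where 5.04 and 5.66% of all genes were.

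Genes that control the pathway split at PL on the deposited scale. INSIG1, the sterol-responsive anchor of the SREBP system and itself an SREBP target, held 7.73, 11.1 and 11.8 units at MG, 14.7, 12.8 and 11.4 at LG, and 14.5, 17.9 and 19.4 at EL. At PL it held 114, 73.7 and 30.6 units, and at W2 10.9, 13.1 and 12.9 units. No PL sow overlapped with any sow of another stage. INSIG1 was higher at PL than at MG by 2.60 (SE 0.36, adjusted p = 0.000627), than at LG by 2.26 (adjusted p = 0.00223) and than at EL by 1.86 (adjusted p = 0.0135), and it fell by 2.33 to W2 (adjusted p = 0.000821). Without PL sow 2 these differences were 2.19 against MG and 1.45 against EL, and -1.91 from PL to W2, all of them called. INSIG2, its close relative, held 12.3, 26.9 and 19.6 units at PL and 7.20, 18.5 and 7.63 at MG (0.86, adjusted p = 0.161).

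**Figure D4:**
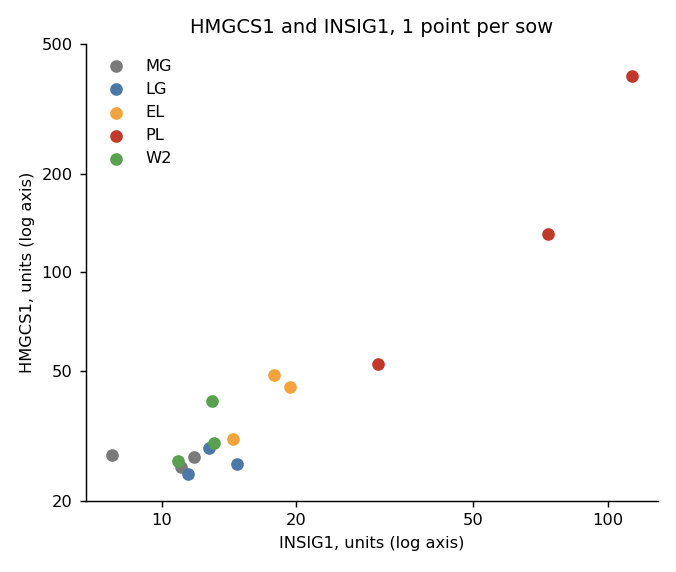
HMGCS1 against INSIG1 in units, both on log axes, with 1 point per sow and colour by stage. The 3 PL sows run from 30.6 and 52.6 units to 114 and 399 units in INSIG1 and HMGCS1, apart from the other 12 sows, which lie between 7.73 and 19.4 units of INSIG1.

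The factor genes themselves did not share this rise on the deposited scale. SREBF2, which codes for the SREBP form most tied to cholesterol genes, held 24.3, 29.1 and 26.4 units at MG, 20.2, 34.1 and 26.3 at PL, and 30.6, 31.1 and 31.2 at W2. Its PL vs MG difference was -0.01 with a 95% interval of -0.42 to 0.39 (adjusted p = 0.989), and it became 0.64 (adjusted p = 0.0032) with median ratio scaling. SREBF1, tied more to fatty acid genes, held 120, 119 and 80.8 units at PL, below the 285, 151 and 198 units at EL and the 247, 208 and 240 units at LG. It was lower at PL than at EL by 0.96 (SE 0.23, adjusted p = 0.0349), and higher at W2 than at PL by 0.78 (adjusted p = 0.0217). With median ratio scaling these were -0.62 (adjusted p = 0.18) and 0.04 (adjusted p = 0.96). SCAP, the escort of the SREBPs, held 13.4 units in PL sow 2 and 20.0 to 29.5 units in all other sows, and was not called in PL vs MG (-0.35, adjusted p = 0.208).

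On the deposited scale, 1 of the 17 control genes (INSIG1) was higher and 7 lower in PL vs MG, where 23.0% of all genes were lower. In W2 vs PL 10 were higher, where 30.4% of all genes were, and INSIG1 was lower. Without PL sow 2 only 2 were lower in PL vs MG, where 16.7% of all genes were. In W2 vs PL 7 were then higher, where 22.9% of all genes were. Those higher at W2 included MYLIP, a ligase that marks lipoprotein receptors for decay, which held 2.62, 15.9 and 13.8 units at PL and 40.2, 43.4 and 28.2 units at W2 (2.04, SE 0.55, adjusted p = 0.0143). The SREBP protease gene MBTPS1 (0.85, adjusted p = 0.00815) and the cofactor genes NFYB (1.21, adjusted p = 0.00267), NFYC (0.95, adjusted p = 0.00952) and SP1 (0.79, adjusted p = 0.0201) were higher as well. With median ratio scaling 1 of the 17 was higher and 3 lower in W2 vs PL, where 7.42% of all genes were higher and 5.66% lower. In PL vs MG 4 were then higher and none lower, where 5.04% of all genes were higher and 5.96% lower.

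**Figure D5:**
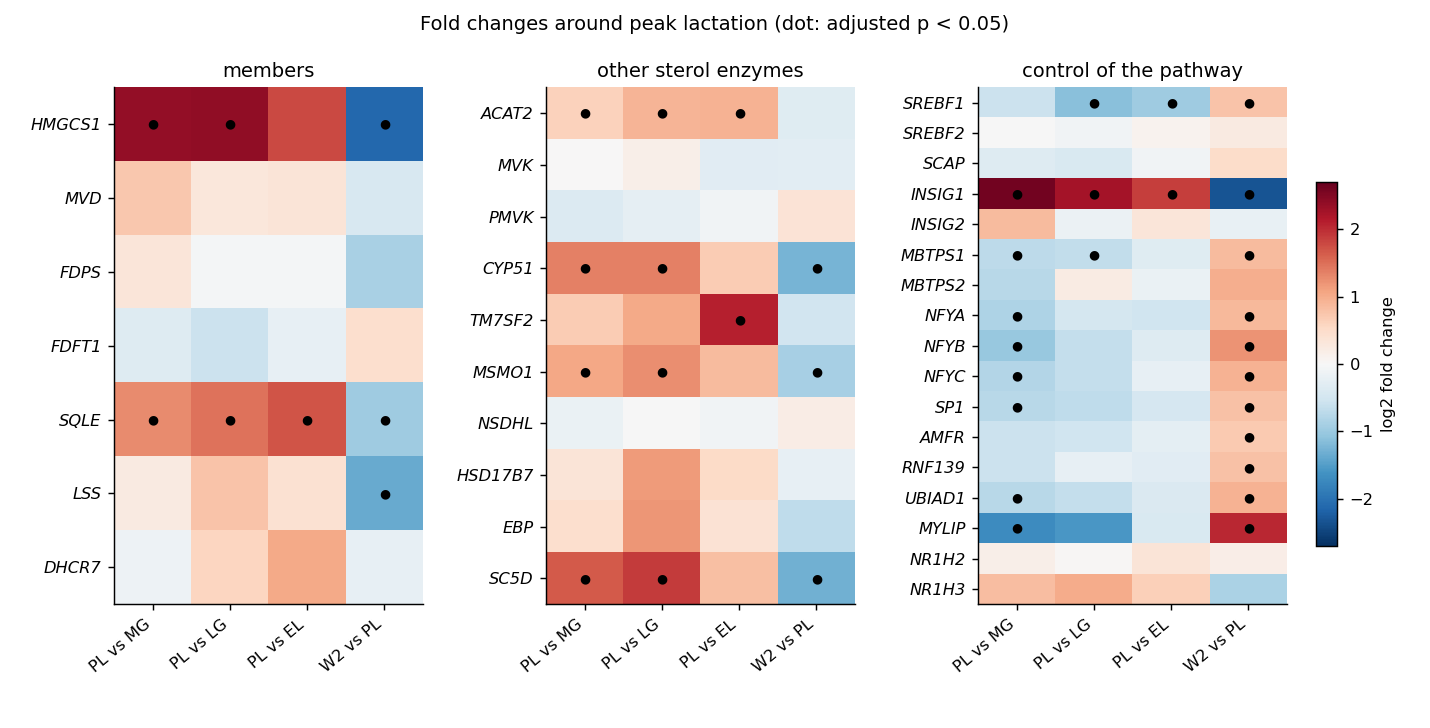
Log2 fold changes, as colour, of the 7 members, 10 other sterol enzymes and 17 control genes in 4 comparisons around peak lactation, with a dot where the adjusted p was below 0.05. HMGCS1, SQLE, CYP51, MSMO1, SC5D and INSIG1 are red against MG and LG and blue after weaning, while 4 of the 17 control genes were above 0 in PL vs MG and 14 in W2 vs PL on the deposited scale. With median ratio scaling these counts were 9 and 10.

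The isoprenoid branch, which leaves the pathway after FDPS to make prenyl groups and ubiquinone tails, was not called higher at PL. Of its 9 genes 3 were lower in PL vs MG, where 23.0% of all genes were, and none was higher, with 1 higher at an unadjusted p below 0.05. In W2 vs PL 4 of the 9 were higher, where 30.4% of all genes were, and none was lower, also at an unadjusted p below 0.05. FNTA, a prenyltransferase subunit, held 10.9, 15.9 and 19.1 units at PL and 30.3, 32.5 and 34.9 units at W2 (1.10, SE 0.19, adjusted p = 0.0013). Median ratio scaling left 1 of the 9 higher at W2 than at PL and none lower at PL against MG, where 7.42 and 5.96% of all genes were.

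The genes most like the members in their pattern were drawn from 8134 annotated genes with a mean of at least 5 units, by Pearson r to the members' mean scaled log2 level over the 15 sows. KLHDC4 and SCD each had r = 0.84, followed by CIDEA and INSIG1 at 0.83, LPO at 0.82, ATP2C2 at 0.81, FITM2 and LOC100513074 at 0.80 and GPRC5B and SEMA7A at 0.79. SCD codes for the stearoyl-CoA desaturase and FITM2 for a lipid droplet protein. Without PL sow 2 these values were 0.52 to 0.69. CIDEA and LPO passed the minimum of 5 units through PL alone: outside PL their means were 0.105 and 0.985 units, so nothing is read from their r. The least alike were STAG2 (-0.92), CEP68, ARHGAP6 and MPND (-0.91 each) and EIF4B (-0.90). All of these r values share the stage, the fixed total and PL sow 2.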

How the data were processed

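Mammary gland RNA of 30 sows was sequenced from TruSeq libraries. Per the labels and the study's methods, the authors used FastQC, Trimmomatic, HISAT2 on Sscrofa11.1 and StringTie, kept transcripts with an FPKM of at least 0.5 in 1 stage, and corrected expression with RUVs. Whether the deposited values carry that correction is not stated. The authors call the deposited values FPKM, but each column adds up to 997480 to 1002643, as TPM does, so they were treated as deposited TPM. They hold no counts. The study lists read totals per sample, which were not used here.

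RefSeq symbols were given to 32677 of 32726 annotated transcripts. The 29047 assembled transcripts (11061 loci) cannot be assigned to named genes and may hold reads of a member. No annotated gene overlaps a member, LSS not being checked. Members, lists and alternatives were chosen with earlier results of these data known. The named genes were the members, list genes called in lactation vs the rest, W2 vs PL or PL vs EL (at most 8 a list by the F test), SREBF1, SREBF2, SCAP, INSIG1 and INSIG2, and the 10 most and 5 least alike genes. Marker genes were summed (CD14, PTPRC, CD3E and LEP were named after their values were seen). Not every gene of the pathway is reported here, and sequences were not used here.

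Gene sums were tested on log2(value + 0.5) with limma 3.58.1 in R 4.3.3, with trended variance, 5 stages in 1 fit and Benjamini-Hochberg adjustment over 26019 genes. A call is an adjusted p below 0.05, and with a log2 fold change of at least 2 besides, only HMGCS1 passed. p-values rest on a spread shared over the sows of all 5 stages, with 3 sows in each, and on the variance trend over all genes. They do not measure the spread within the compared stages alone, which could differ: the SD of HMGCS1 was 182 units at PL and 1.21 units at MG. A fold change on this scale understates the change of low genes. On simulated data for W2 vs PL with 26019 genes, 12 of 50 genes planted at a log2 change of 1 were called, 29 of 50 at 2, 44 of 50 at 3 and 47 of 50 at 4, with 6 unchanged genes called. All genes but the planted ones were flat there, while 32.8% of all genes were called in W2 vs PL in the data. The same adjusted p then asks for a smaller unadjusted p in the simulation. Its recovery therefore does not give the power of the calls reported here. Alternatives were the pseudocount, a filter on low values, scaling, the near copies, the stages in the fit, the replicate block, the main transcript and each sow left out. Same-numbered samples are different sows: their deviations had a median r of -0.03 over 19 pairs (-0.12 to 0.14), against -0.05 over 71 pairs of different numbers, so the numbers do not pair them.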

Additional observations from a re-analysis of the deposited data

How the results depend on the processing

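Other pseudocounts (0.1 and 1) and a filter on low values moved no member count by over 1.5 times. Quantile normalization called 3 members in lactation vs the rest, where it called 11.9% of all genes. It turned FDFT1 (0.082) and DHCR7 (0.17) there and FDFT1 in W2 vs PL (-0.21). Median ratio scaling called 2 in PL vs EL and 3 in lactation vs the rest, where it called 5.25 and 11.8% of all genes. It turned the same values (0.12, 0.14 and -0.29). With PL sow 2 left out as well, chosen after seeing the data, 3 were called in lactation vs the rest, where 13.3% of all genes were. These values were then 0.054, 0.11 and -0.14. All 6 samples per stage, near copies included, called 2 in LG vs MG, 3 in EL vs MG and 1 in W2 vs MG. They called 6 in PL vs LG, 3 in W2 vs LG, 4 in PL vs EL and 4 in W2 vs EL. They also called 6 in W2 vs PL and 6 in lactation vs the rest. Of all genes, this setting called 14.2% in LG vs MG, 38.9% in PL vs EL and 63.3% in W2 vs PL. In lactation vs the rest it called 64.2% of all genes. Its shares were not computed for EL vs MG, W2 vs MG, PL vs LG, W2 vs LG and W2 vs EL, so nothing is read from the member counts there. Near copies as 1 further sample called 1 in EL vs MG, 3 in W2 vs EL and 3 in PL vs EL. They called 3 in lactation vs the rest as well. The shares of all genes were then 19.1% in PL vs EL and 51.3% in lactation vs the rest. No share was computed for EL vs MG and W2 vs EL, so nothing is read from the counts there. The stages compared alone called 0 in PL vs EL, W2 vs PL and PL vs MG (2, 3 and 2 members at an unadjusted p below 0.05). Of all genes 0.165, 11.4 and 6.75% were called there. The replicate block called 0 in PL vs EL, PL vs MG and PL vs LG (3, 2 and 2 members at an unadjusted p below 0.05), and SQLE in W2 vs PL had adjusted p = 0.0873. With this block 0.865% of all genes were called in PL vs EL and 11.5% in PL vs MG. The share in PL vs LG was not computed. The block moved the other member counts by no more than 1.5 times, and the samples share only a number. The transcript with the highest mean called 0 in PL vs EL (2 at an unadjusted p below 0.05), 1 each in W2 vs PL, PL vs MG and PL vs LG, and DHCR7 in W2 vs PL turned to 0.49. Of all transcripts 0.698% were called in PL vs EL, 7.13% in W2 vs PL, 4.28% in PL vs MG and 2.26% in PL vs LG. With a log2 fold change of at least 2 besides, 0 were called in PL vs EL and 1 in W2 vs PL, where 1.05 and 5.22% of all genes were. With 1 sow left out the counts ranged from 1 to 3 in PL vs MG (1 without MG sow 1, 3 without PL sow 3), 0 to 2 in PL vs EL (0 without EL sow 3, 2 without PL sow 6), 1 to 3 in W2 vs PL (1 without W2 sow 2) and 1 to 2 in lactation vs the rest (2 without LG sow 4, PL sow 6 or W2 sow 6), and DHCR7 in W2 vs PL ranged from -0.38 to 0.063, the latter without W2 sow 2. Of all genes, 20.5% were called in PL vs MG without MG sow 1 and 27.6% without PL sow 3. In PL vs EL 1.66% were called without EL sow 3 and 5.07% without PL sow 6. In W2 vs PL 27.3% were called without W2 sow 2. In lactation vs the rest 28.5, 36.6 and 29.9% were called without LG sow 4, PL sow 6 and W2 sow 6. The cause of the changes between settings was not tested, except that fewer samples entered the fits of 2 stages. Without counts in the table, the counting error of members at a few units, SQLE and single isoforms above all, is not known.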

Other observations

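NPC2, which moves cholesterol out of lysosomes, held 95.1, 104 and 104 units in MG sows 1, 3 and 6, 107, 116 and 93.7 units at EL, 127, 253 and 200 units at PL and 80.2, 97.4 and 77.6 units at W2. It was higher at PL than at EL by 0.82 (SE 0.21, adjusted p = 0.0481, limma) and fell by 1.13 to W2 (adjusted p = 0.00228), and here PL sow 2 was the lowest of the PL sows rather than the highest. ABCA1, the exporter of cellular cholesterol, held 1.46, 3.87 and 3.51 units at PL against 7.91, 6.45 and 6.11 at EL (-1.16, SE 0.29, adjusted p = 0.0432) and 9.53, 7.83 and 6.07 at W2. SCARB1, a receptor for high density lipoprotein, held 26.9, 49.3 and 37.1 units at PL and 50.7 to 78.7 units in all other sows, and was called lower in PL vs MG (-0.85, adjusted p = 0.0114). Of the 13 genes of uptake, export and storage, 1 was higher and 2 lower in PL vs MG as deposited, where 2.23% of all genes were higher and 23.0% lower. The counts were 2 and 2 without PL sow 2, where 3.82% of all genes were higher and 16.7% lower. They were 3 and 0 with median ratio scaling, where 5.04% of all genes were higher and 5.96% lower.

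Of 16 genes of milk fat synthesis, 3 (XDH, ELOVL6 and SCD) were higher and 3 (ACSS2, DGAT1 and GPAM) lower in PL vs MG, where 2.23% of all genes were higher and 23.0% lower. SCD held 561, 184 and 95.4 units in PL sows 2, 3 and 6 and 46.9 to 138 units in the others, the same order of PL sows as HMGCS1, and fell by 1.84 to W2 (SE 0.51, adjusted p = 0.0158). ELOVL6, a fatty acid elongase, held 38.1, 44.8 and 22.7 units at PL and 5.00 to 16.2 units in the other 12 sows. GPAM was listed at 0 in PL sows 2 and 6 and at 47.5 units in PL sow 3. With median ratio scaling 4 of the 16 were higher in PL vs MG and 0 lower, where 5.04% of all genes were higher and 5.96% lower.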
